A study of Bos taurus with 11 samples.

Results

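The miRNAs *bta-miR-205*, *bta-miR-31* and *bta-miR-184* were followed in mammary gland (MG) biopsies of lactating cows, together with their relation to the other epithelial miRNAs of the same libraries. They were taken by name from a list of 4 epithelial miRNAs, and 3 of these were analysed among the 796 miRNAs of the count table. The fourth was not analysed here. Biopsies from the rear of the udder gave 1 small RNA library for each of 5 Holstein and 6 Montbéliarde cows. Both are dairy breeds, and all cows were in mid-lactation and received the same diet. Libraries are named by their tags, CNLX1, CNLX3, CNLX5, CNLX7 and CNLX9 for Holstein, and CNLX13, CNLX15, CNLX17, CNLX19, CNLX21 and CNLX23 for Montbéliarde. The tags do not mix the breeds, so an effect of tag order and an effect of breed cannot be told apart.

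A miRNA guides a silencing complex to mRNAs that match its seed, the bases near its 5′ end, and lowers the translation or the stability of these mRNAs. The MG epithelium has an inner luminal layer, which secretes the milk, and an outer basal layer of contractile myoepithelial cells. *miR-205* is known from stratified and basal epithelia, where it represses the transcription factors ZEB1 and ZEB2 together with the miR-200 family. *miR-31* is known from skin and mammary epithelium and acts on growth and migration, and *miR-184* is best known from the cornea, the lens and the epidermis. The miR-200 family (*miR-200a*, *miR-200b*, *miR-200c*, *miR-141* and *miR-429*) marks epithelial cells in general.

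In RefSeq (assembly ARS-UCD2.0, a later one than the authors used), *miR-205* has 1 gene, *MIR205*, which lies outside other genes, with *CAMK1G* and *PLXNA2* as the nearest protein-coding genes. The gene *MIR31* lies within the bounds of *IFNE*, which encodes interferon epsilon. The gene *MIR184* lies within an uncharacterized long non-coding RNA gene, *LOC112443131*, between *RASGRF1* and *ANKRD34C*.

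The reads counted on miRNAs ranged from 7431936 to 16808976 in the Holstein libraries and from 6087865 to 11395785 in the Montbéliarde libraries. All 9 other epithelial miRNAs of a chosen list (the miR-200 family, *miR-375*, *miR-183*, *miR-96* and *miR-182*) were counted in every library. Together they held 4.60% of the reads in Holstein and 3.10% in Montbéliarde on average. Library CNLX15 had the highest sum of stromal and smooth muscle miRNAs (all 7 of 7 listed were counted), of leukocyte miRNAs (5 of 5) and of the listed pigment cell miRNAs (2 of 2, nearly all of it *miR-204*). It ranked 10 of 11 for the sum of the other epithelial miRNAs, of which 49.3% to 73.3% was *miR-141*. In that list *miR-200a*, *miR-200b*, *miR-200c*, *miR-429* and *miR-375* were at their lowest in CNLX15. In contrast, *miR-183* and *miR-96* were at their highest there, at 4690 and 340 normalized read counts. The leukocyte sum was 84.0% to 90.7% *miR-142-5p*. The stromal *miR-145* and *miR-133a*, the leukocyte *miR-142-3p* and *miR-150*, and *miR-211* were not at their highest in CNLX15. The stromal sum was 1514323 to 2307452 normalized read counts in Holstein and 1928811 to 3871261 in Montbéliarde. The log2 difference, Montbéliarde minus Holstein, was 0.56 (exact permutation test, two-sided, unadjusted p = 0.0173). Of this sum 99.1% to 99.5% was *miR-143*, so that the sum stands for 1 miRNA. *miR-143* itself was not called between the breeds (log2FC 0.58, adjusted p = 0.171, edgeR). The log2FC was -0.27 for *miR-145* and 0.06 for *miR-199b*. The pigment cell sum differed by 0.68 (exact permutation test, p = 0.0260), with a log2FC of 0.72 for *miR-204* and of -0.55 for the rare *miR-211*. The leukocyte, endothelial, erythroid and skeletal muscle sums (4 of 5 listed in the last, 2 of 2 and 3 of 3 in those before) differed by 0.17, -0.05, 0.13 and 0.12, with p-values of 0.524, 0.571, 0.628 and 0.753 in the same exact test. The sum of the other epithelial miRNAs differed by -0.65 (exact permutation test, two-sided, p = 0.0303). The p-values of these sums were not adjusted for one another. No listed miRNA was called between the breeds, none was at 0 in any library, and the part of these cell types in the breed differences given here was not tested. In a bulk biopsy, fewer cells of a type and less RNA per cell cannot be told apart.

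The 3 miRNAs differed widely in level. *miR-205* held 0.220% of the counted reads on average over the 11 libraries and ranked 40 among all miRNAs. *miR-31* held 0.0194% and ranked 95, and *miR-184* held 0.000377% and ranked 276. Levels are read counts per mature miRNA and were not divided by length, since mature miRNAs are of nearly equal length, and differences in adapter ligation between sequences were not measured. The order was the same in 11 of 11 libraries. The count of *miR-205* was 4.14 to 20.6 times that of *miR-31*, with a mean log2 ratio of 3.58 ± 0.62 (SD, n = 11). The count of *miR-31* was at least 18.5 times that of *miR-184* in each library in which *miR-184* was counted, with a mean log2 ratio of 6.79 ± 2.31 (SD, n = 11) after 1 was added to each count. The 3 pairs were compared, the pair *miR-205* and *miR-184* included, and each gave p = 0.000977 in an exact paired permutation test, two-sided (adjusted over the 3 pairs, p = 0.000977), the smallest value that 11 libraries allow.

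In normalized read counts (the raw counts divided by 1 size factor per library), *miR-205* was at 14005 in CNLX1, 21238 in CNLX3, 19604 in CNLX5, 19271 in CNLX7 and 17956 in CNLX9. In Montbéliarde its lowest count was 18677, in CNLX23, the median was 22982 and the highest was 32306, in CNLX19. The libraries CNLX17, CNLX19 and CNLX21 lay above every Holstein library, and the other 3 Montbéliarde libraries were within the Holstein range. The Holstein mean was 18415 ± 2728 (SD, n = 5) and the Montbéliarde mean 23981 ± 5385 (SD, n = 6). The log2FC, Montbéliarde over Holstein, was 0.38 (standard error 0.19, 95% confidence interval -0.01 to 0.78), and *miR-205* did not pass the test of the breeds (adjusted p = 0.348, by the Benjamini-Hochberg method over the 550 tested miRNAs, with edgeR's quasi-likelihood fit). Permuting the log2 levels between the breeds gave p = 0.0736 (exact, two-sided). The interval includes equal levels as well as a level in Montbéliarde up to 0.78 higher on the log2 scale.

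The normalized read count of *miR-31* was 1435 in CNLX1, 1032 in CNLX3, 2073 in CNLX5, 1489 in CNLX7 and 1037 in CNLX9. In Montbéliarde it was lowest in CNLX23, at 1260, with a median of 1959 and a highest value of 4995 in CNLX15. The breeds overlapped, with only CNLX15 and CNLX21 above the highest Holstein library. The means were 1413 ± 427 (SD, n = 5) and 2377 ± 1326 (SD, n = 6). The log2FC was 0.73 (standard error 0.31, 95% confidence interval 0.07 to 1.39), with an unadjusted p of 0.0334 and an adjusted p of 0.313 from the same edgeR test, so that *miR-31* was not called. The exact permutation of the log2 levels gave p = 0.0693, two-sided. Without CNLX15 the log2FC fell to 0.48 (adjusted p = 0.307, edgeR). In CNLX15, the leukocyte miRNA *miR-155* was at 2644 and the stromal miRNA *miR-199a-3p* at 18352 normalized read counts, the highest value of each in any library. The part of these cell types in the level of *miR-31* was not tested.

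*miR-184* was near the limit of detection in several libraries and high in others. The raw counts were 13 in CNLX1, 40 in CNLX3, 12 in CNLX5, 62 in CNLX7 and 43 in CNLX9. The Montbéliarde libraries gave 46 reads in CNLX13, 150 in CNLX15, 3 in CNLX17, 6 in CNLX19, none in CNLX21 and 3 in CNLX23. The 0 of 11395785 reads in CNLX21 allow a share of up to 2.63e-05%, counting error only. In normalized read counts, Holstein ranged from 7.24 to 56.0, and the Montbéliarde cows lay on either side of this range. CNLX13 and CNLX15 were above it, at 76.7 and 187, and the other 4 were below it, between 0 and 5.81.

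The mean normalized read count of *miR-184* was thus higher in Montbéliarde, 46.1 ± 75.2 (SD, n = 6), than in Holstein, 31.3 ± 21.04 (SD, n = 5), whereas the median was lower, 5.16 against 40.9. The log2FC had a standard error larger than itself, 0.51 (standard error 1.07, 95% confidence interval -1.80 to 2.81, adjusted p = 0.871 from edgeR). On the log2(normalized read count + 1) scale the mean difference had the opposite sign, -1.19 (exact permutation test, two-sided, p = 0.420). Without CNLX15 the log2FC was -0.89 (adjusted p = 0.770, edgeR), and with limma-voom on all 11 libraries it was -1.61 (adjusted p = 0.560). The sign of the breed difference therefore depended on 1 library and on the method and scale. CNLX13, the other high library, had the highest sum of the miR-200 family, 450174 normalized read counts, and CNLX15 had the second lowest, 160517. The 2 libraries with high *miR-184* did not share a high or a low level of these epithelial miRNAs.

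**Figure D1:**
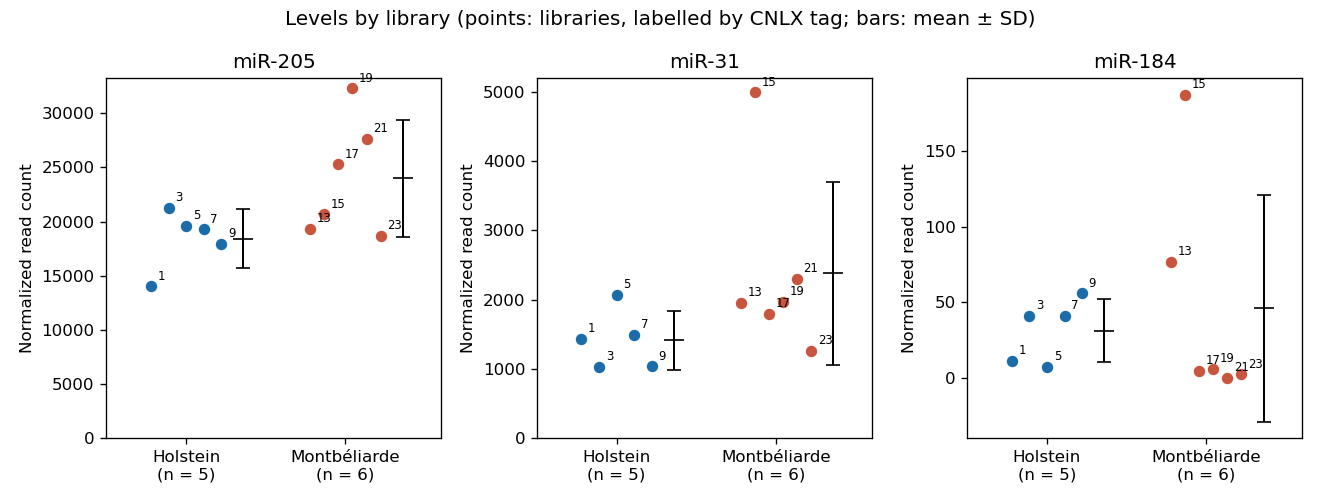
Normalized read count of each miRNA (y axis, linear) in the 5 Holstein and 6 Montbéliarde libraries; points are libraries labelled by the number of their CNLX tag, and bars are the mean ± SD of a breed. The breeds overlap for miR-205 and miR-31, CNLX15 stands at 4995 for miR-31, and the Montbéliarde libraries of miR-184 lie on either side of the Holstein range.

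Spread between cows was described by the SD of log2(normalized read count + 1) within breeds. It was 0.28 for *miR-205* and 0.57 for *miR-31*. The median was 0.35 over the 214 tested miRNAs with a mean normalized read count of at least 100, of which 70 had a smaller spread than *miR-205* and 179 a smaller spread than *miR-31*. For *miR-184* the SD was 2.29, the largest of all 550 tested miRNAs, whose median was 0.55. The 142 tested miRNAs with a mean between 10 and 100, the abundance class of *miR-184*, had a median of 0.54. Its spread was 1.24 in Holstein and 2.87 in Montbéliarde.

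**Figure D2:**
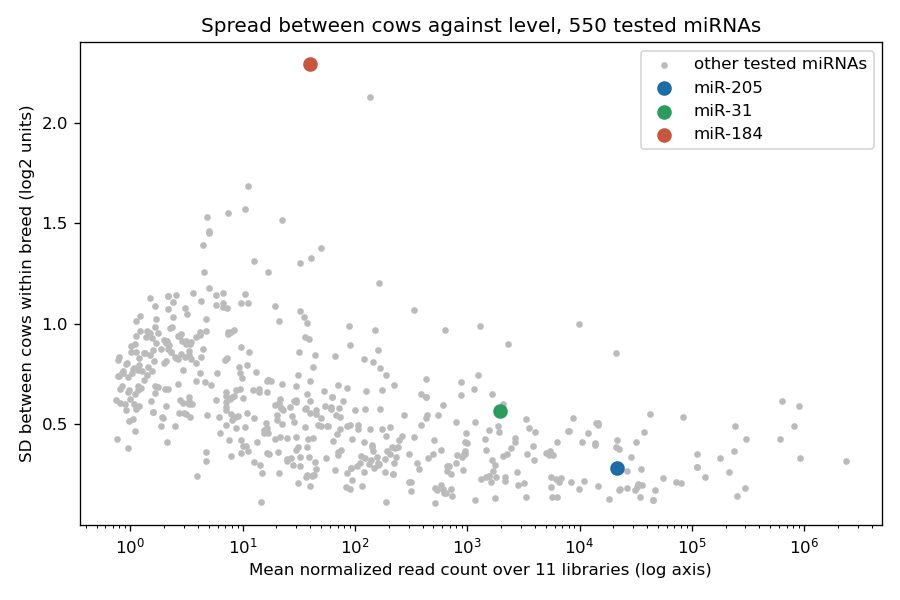
SD between cows within breed in log2 units (y axis) against the mean normalized read count over 11 libraries (x axis, log scale) for the 550 tested miRNAs; the 3 coloured points are miR-205, miR-31 and miR-184. miR-184 is at 2.29, above every other tested miRNA, while miR-205 is at 0.28 and miR-31 at 0.57.

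Of the 3 miRNAs, 0 were called between the breeds at an adjusted p of at most 0.05 by edgeR, by DESeq2 or by limma, and the share called among all tested miRNAs was 0.364% by edgeR, 3.82% by DESeq2 and 0.364% by limma. At an unadjusted p of at most 0.05 it was 1 of 3 by edgeR, *miR-31*, beside 14.2% of all tested miRNAs. With DESeq2 it was 2 of 3, *miR-205* and *miR-31*, beside 15.5%, and with limma 0 of 3, beside 12.7%. None of the 3 had breeds without overlap, which was the case for 2% of the tested miRNAs. The median log2FC of the 3 was that of *miR-184*, 0.51, beside 0.03 over all tested miRNAs. With the level of the miR-200 family as a covariate, the log2FC was 0.13 for *miR-205* (adjusted p = 0.963, edgeR) and 0.17 for *miR-31* (adjusted p = 0.967, edgeR). The family level itself was lower in Montbéliarde, and its part and that of breed were not separated by this fit.

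**Figure D3:**
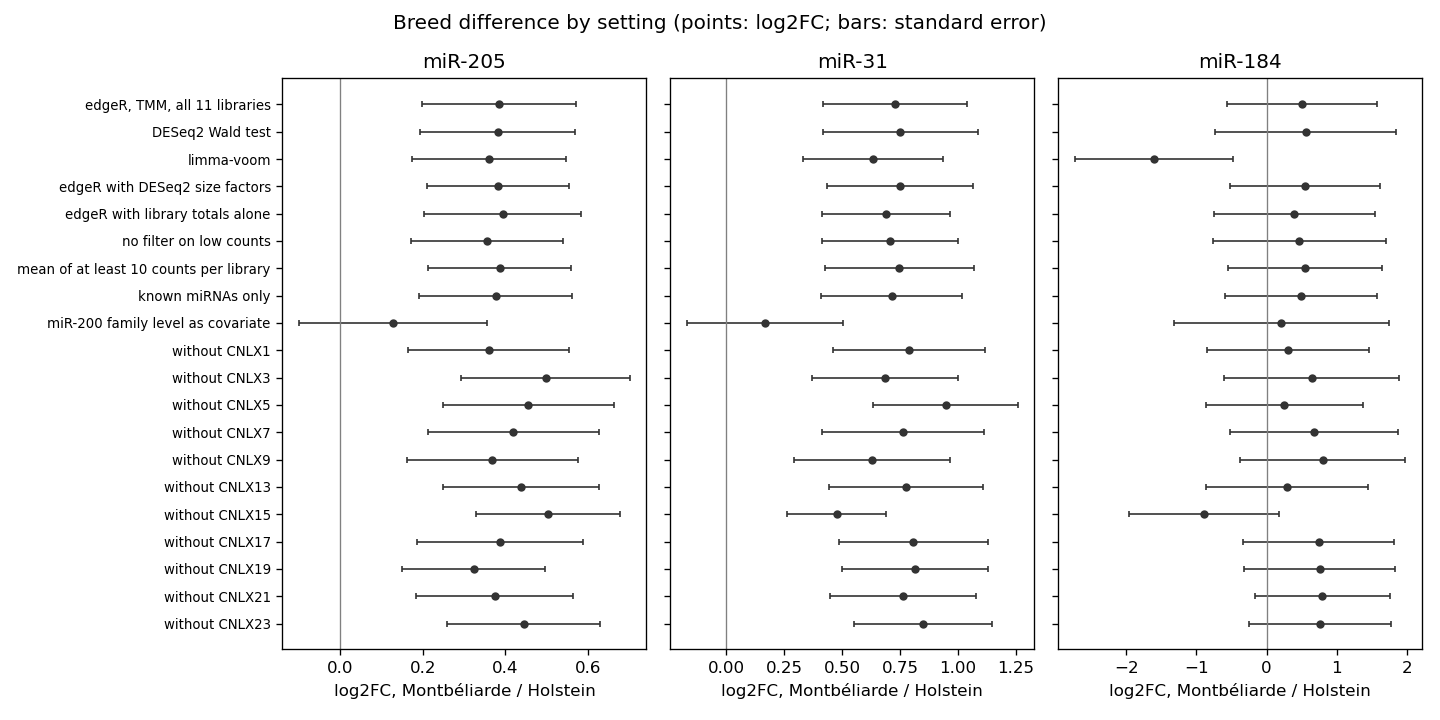
Breed difference as log2FC, Montbéliarde over Holstein (x axes, own scale in each panel), under each setting (rows); points are estimates and bars are standard errors. miR-205 and miR-31 stay above 0 in every setting and come closest to it with the miR-200 family as a covariate, and miR-184 lies below 0 with limma-voom and without CNLX15.

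Among the other epithelial miRNAs the log2FC was below 0 for 8 of 9, with a median of -0.22, whereas it was above 0 for *miR-205* and *miR-31*. The log2FC of *miR-184* was also above 0 in edgeR, at 0.51, but its sign was not settled. In the list of other epithelial miRNAs, 0 of the 9 were called in either direction (lowest adjusted p = 0.217, edgeR). For *miR-141*, the most abundant of them, it was -0.74 (standard error 0.26, adjusted p = 0.217), and for *miR-200c* it was -0.61 (standard error 0.27, adjusted p = 0.322 from edgeR). Those of *miR-429*, *miR-200b* and *miR-200a* were -0.33, -0.10 and -0.04, with adjusted p-values of 0.491, 0.876 and 0.975 in the same test. The summed normalized read count of the miR-200 family averaged 396113 ± 45184 (SD, n = 5) for Holstein and 253088 ± 111687 (SD, n = 6) for Montbéliarde, where 5 of 6 libraries lay below every Holstein library (exact permutation test of the log2 sums, two-sided, p = 0.0303). Between 65.3% and 82.0% of this sum was *miR-141*.

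Set against this family within each library, *miR-205* gave 31.9 to 56.3 reads per 1000 family reads in Holstein and 42.9 to 181 in Montbéliarde. The highest values were in CNLX21 and CNLX19, at 181 and 164, and only CNLX13 was within the Holstein range. Holstein had a mean log2 ratio of -4.43 ± 0.31 (SD, n = 5) and Montbéliarde one of -3.32 ± 0.80 (SD, n = 6), so that the difference was 1.11 (exact permutation test, two-sided, p = 0.0216). *miR-31* gave 2.32 to 5.96 reads per 1000 family reads in Holstein and 4.34 to 31.1 in Montbéliarde, with 4 of 6 Montbéliarde libraries above every Holstein library. Its log2 ratio differed by 1.40 (exact permutation test, two-sided, p = 0.0173). For *miR-184* the difference was -0.46 (exact permutation test, p = 0.758), and no direction was shown.

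These 3 ratio tests were not adjusted for one another. The ratios of *miR-205* and *miR-31* have to be read against the rest of the table, since the family in the denominator was lower in Montbéliarde. Of the 545 tested miRNAs outside the family, 35.8% had a higher ratio in Montbéliarde at the same limit, and none had a higher ratio in Holstein. The median difference of all 545 was 0.79. Ordered from the most positive difference to the most negative, *miR-31* ranked 59 and *miR-205* ranked 134 of 545. *miR-184* ranked 542 of 545, below the first quartile of 0.51, but its sign was not settled, since the difference was 0.15 without CNLX21. A higher ratio in Montbéliarde was common in this table. Once *miR-141* was left out of the family, a setting added with the data in view, the difference of *miR-31* no longer passed (1.15, exact permutation test, p = 0.0649).

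**Figure D4:**
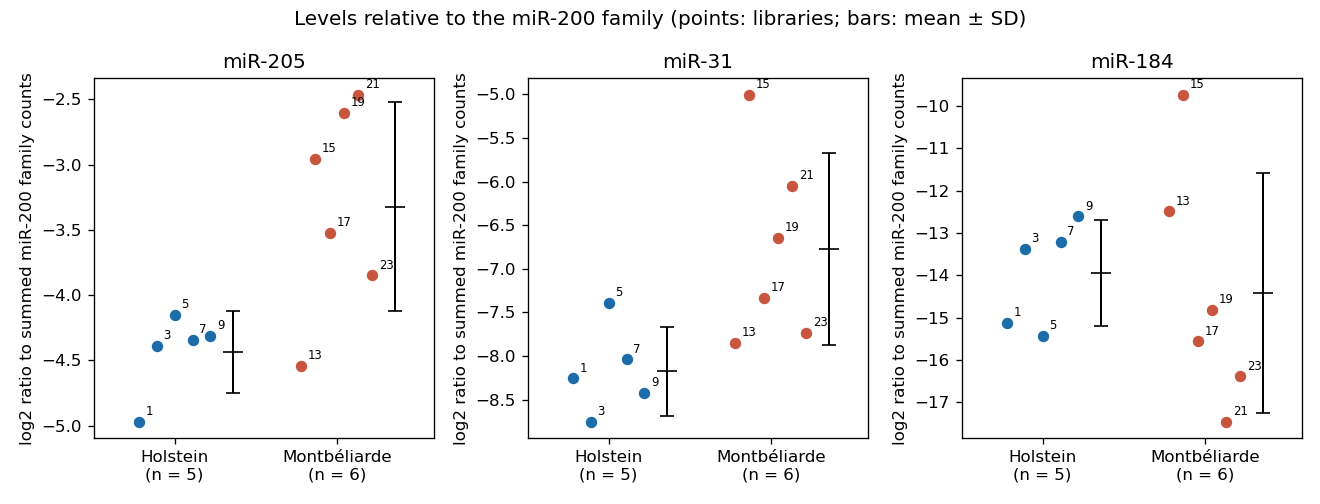
Log2 ratio of each miRNA to the summed counts of the miR-200 family (y axes, own scale in each panel) in the 5 Holstein and 6 Montbéliarde libraries; points are libraries labelled by the number of their CNLX tag, and bars are the mean ± SD. For miR-205, 5 of 6 Montbéliarde libraries are above every Holstein library, for miR-31 it is 4 of 6, and for miR-184 the Montbéliarde libraries spread to both sides.

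Across the 11 libraries, 6 relations were computed on log2 levels, among the 3 miRNAs and between each of them and the miR-200 family. Normalized levels share the scaling of their library, so that the 2 sides of a relation are not fully independent. *miR-205* and *miR-31* were not distinguishably related (Pearson's r = 0.30, permutation p = 0.363, adjusted p = 0.436; Spearman's rho = 0.52, permutation p = 0.107, adjusted p = 0.183). With the mean of each breed subtracted, r was -0.02. For *miR-205* and *miR-184*, r was -0.40 (permutation p = 0.220, adjusted p = 0.433) and rho -0.33 (permutation p = 0.327, adjusted p = 0.392). For *miR-31* and *miR-184*, r was 0.14 (permutation p = 0.682, adjusted p = 0.682) and rho -0.08 (permutation p = 0.819, adjusted p = 0.819). Without the 2 libraries farthest from the median of the first miRNA, r was 0.24, -0.0032 and -0.43 in these 3 relations.

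The level of *miR-205* was lower in libraries with more miR-200 family reads, with r = -0.65 (permutation p = 0.0280, adjusted p = 0.0839) and rho = -0.51 (permutation p = 0.114, adjusted p = 0.183). For *miR-31* the values were r = -0.67 (permutation p = 0.0175, adjusted p = 0.0839) and rho = -0.61 (permutation p = 0.0517, adjusted p = 0.183). Neither passed after adjustment. Without CNLX19 and CNLX21, r fell to -0.35 for *miR-205*, and without CNLX3 and CNLX15 it was -0.43 for *miR-31*, and neither relation passed at an unadjusted p of 0.05 any longer. Leaving out the libraries at the ends also narrows the range of levels. With only CNLX19 or only CNLX21 left out, r was -0.60 and -0.56 for *miR-205*, and with only CNLX3 or only CNLX15 left out it was -0.63 and -0.52 for *miR-31*. Within breeds, with each breed's mean subtracted, r was -0.43 (permutation p = 0.187) and -0.50 (permutation p = 0.121). In the Montbéliarde libraries alone it was -0.49 and -0.54 (n = 6, permutation p = 0.309 and 0.265), and no correlation was computed over fewer than 6 libraries, which leaves out Holstein. *miR-184* had r = 0.35 with the family (permutation p = 0.288, adjusted p = 0.433) and rho = 0.50 (permutation p = 0.122, adjusted p = 0.183), r = 0.71 without CNLX15 and CNLX21 (permutation p = 0.0320), and r = 0.83 without CNLX15 alone (permutation p = 0.00205, unadjusted). Over all 11 libraries no positive relation with the miR-200 family passed for any of the 3 miRNAs named as epithelial, and the sign was negative for *miR-205* and *miR-31*.

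**Figure D5:**
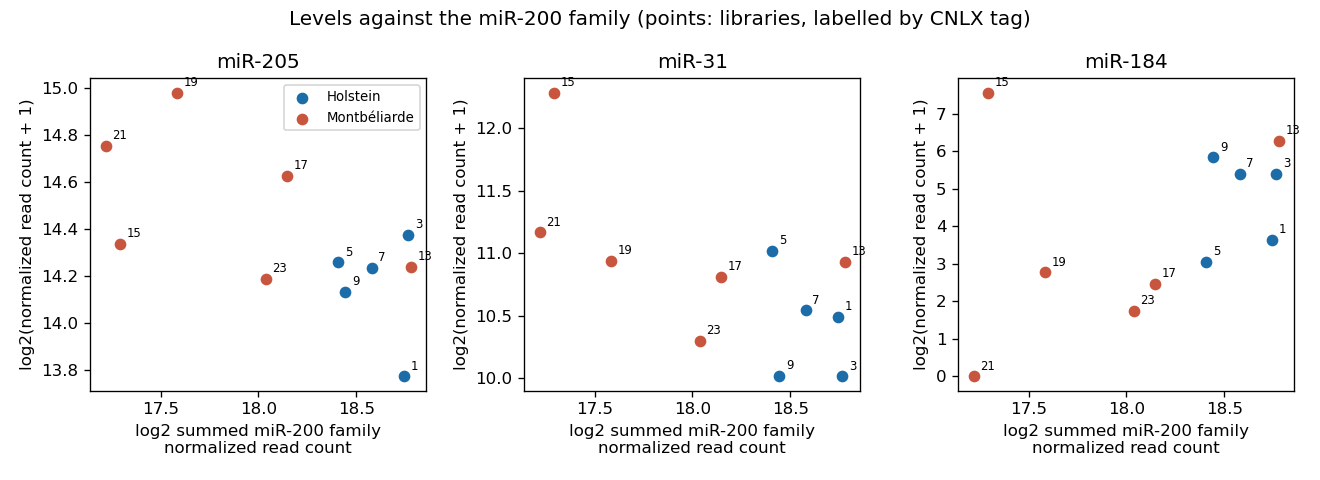
Log2(normalized read count + 1) of each miRNA (y axes, own scale in each panel) against the log2 summed normalized read count of the miR-200 family (x axis); points are libraries, coloured by breed and labelled by the number of their CNLX tag. miR-205 and miR-31 fall from left to right (r = -0.65 and -0.67), and CNLX15 lies far above the other libraries with a low family level for miR-184.

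The miRNAs with the most similar profiles were sought among the 214 with a mean of at least 100, by the root mean square difference of the centred log2 levels over the 11 libraries. For *miR-205* these were *miR-339a*, *miR-339b* and *miR-93*, with differences of 0.22, 0.22 and 0.23 beside a median of 0.48 over all compared miRNAs and an own variation of *miR-205* of 0.31. For *miR-31* they were *miR-155*, *miR-3604* and *miR-199a-3p*, with differences of 0.23, 0.26 and 0.26 beside a median of 0.66 and an own variation of 0.61. The means of *miR-3604* and *miR-199a-3p* were almost the same, 5884 and 6009 normalized read counts in Holstein and 9491 and 9643 in Montbéliarde. Whether the same reads were counted for both was not tested, so they are not read as 2 separate matches. *miR-155* is known from leukocytes and *miR-199a-3p* from stromal cells, and both were highest in CNLX15, as was *miR-31*. The epithelial *miR-183* and *miR-96* were highest in CNLX15 as well. For *miR-184* the closest were *miR-34c*, *miR-191* and *miR-374a*, at differences of 1.73, 1.95 and 1.96 beside a median of 2.18 and an own variation of 2.16. Relative to the own variation, the closest profiles were nearest for *miR-31* and farther for *miR-205* and *miR-184*. The closest miRNAs themselves varied by 0.13, 0.21 and 0.24 for *miR-205*, by 0.51 each for *miR-31*, and by 0.73, 0.38 and 0.41 for *miR-184*. A profile that varies little can score as close by this measure, so that a small difference need not be a shared pattern.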

How the data were processed

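Per the labels and the study's methods, total RNA of MG biopsies was made into TruSeq small RNA libraries. The authors trimmed adaptors, kept reads of 15 to 40 nt and quantified them with ncPRO-seq and miRDeep2 (bovine assembly btau5.0.1, miRBase). They deposited raw read counts per mature miRNA, and a signal, the normalized read counts, which are counts divided by DESeq2 size factors (version 1.18.1 per the submitters' processing notes). The authors' columns of fold changes and p-values were not used. How reads matching several miRNAs were counted is not given in the sources used here.

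Breeds were compared on raw counts over all miRNAs with at least 10 counts in sum (550), with edgeR 4.0.16 (TMM, robust glmQLFit, glmQLFTest, Benjamini-Hochberg) in R 4.3.3. DESeq2 1.42.0 and limma 3.58.1 were alternatives. The study's own tool, DESeq2, is an alternative because quasi-likelihood was the main test for counts. Fits were tested on simulated data. Ratios, with 1 added to each count, were compared by two-sided exact permutation over all assignments of 5 and 6 libraries. Pairs were compared by sign flips, and correlations were tested by 100000 permutations. Plots used matplotlib 3.10.9. Depth was 6087865 to 16808976 counted reads per library, and intervals and limits (3 counts) cover counting error only. Each library is 1 biopsy of 1 cow, so the p-values rest on the spread between libraries of different cows. This spread includes that of biopsy, library preparation and counting, which were not separated from differences between cows. Breed came from the sample labels. The miRNAs and lists were chosen with earlier results of these data known. Named were the 3 miRNAs, listed cell type markers by counts, and the 3 closest profiles each; seeds were not compared. Gene names come from RefSeq, in which 3 of 3 miRNAs matched; no coordinates are given because the assemblies differ.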

Additional observations from a re-analysis of the deposited data

Results flagged for a closer look

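Each breed was searched for a library far from the others (Dixon's ratio of gap to range), for the level of each miRNA and for its ratio to the miR-200 family, 12 groups in all. For normally distributed values, chance sets a library apart in about 1 of 20 such groups, and 1 was found. Whether the counts are so distributed was not tested. The normalized read count of *miR-31* in CNLX15, 4995, was far from the other 5 Montbéliarde libraries, with a ratio of 0.722 beside a critical value of 0.625. This level was searched on the linear scale. The log2 ratio of *miR-31* to the miR-200 family in CNLX15 gave a Dixon's ratio of 0.368, which did not reach the critical value. For the level of *miR-184*, CNLX15 was also the highest library, at 187, with a ratio of 0.591 that did not reach the critical value.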

How the results depend on the processing

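Over 16 results, 247 alternatives were computed, of which 214 counted as unchanged. For a test this means the same direction and the same side of the threshold, also where neither the main result nor the alternative passed. The 214 include 4 alternatives for the number of miRNAs called, where it means a count near the main one. The log2FC of *miR-205* stayed between 0.13 and 0.50 and that of *miR-31* between 0.17 and 0.95, and neither was called under any of them. The log2FC of *miR-184* turned to -1.61 with limma-voom and was between -0.89 and 0.80 with each library left out (-0.89 without CNLX15). The number of miRNAs called was 2 with edgeR, 21 with DESeq2, 0 with DESeq2 size factors in edgeR, 1 with library totals alone, 0 with the miR-200 family as a covariate, and 0 to 6 with 1 library left out (1 without CNLX9, 4 without CNLX13, 5 without CNLX17, 6 without CNLX23, 0 without any other). The cause was not tested.

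The ratio to the miR-200 family differed by 0.94 to 1.35 for *miR-205* and by 1.05 to 1.62 for *miR-31* with 1 library left out. It passed each time, and moved to 1.15 (p = 0.0649, exact test) for *miR-31* without *miR-141* in the family. That of *miR-184* was between -1.40 and 0.15, positive without CNLX21. The correlation of *miR-205* with the family weakened to -0.48 on CPM, -0.43 with breed means subtracted and -0.35 without the 2 farthest libraries, and was -0.76 to -0.56 with 1 left out, not passing at an unadjusted p of 0.05 without CNLX1, CNLX19 or CNLX21. That of *miR-31* was -0.75 on CPM (permutation p = 0.00493, unadjusted), and weakened to -0.50 with breed means subtracted and -0.43 without the 2 farthest libraries. It was -0.75 to -0.52 with 1 left out, not passing without CNLX15. That of *miR-184* rose to 0.71 without the 2 farthest libraries, and was 0.039 to 0.83, with 0.83 without CNLX15, which passed (permutation p = 0.00205, unadjusted). The r of *miR-205* with *miR-31* became -0.021 with breed means subtracted. That of *miR-31* with *miR-184* became -0.43 without the 2 farthest libraries, and was -0.50 to 0.33 with 1 left out (-0.50 without CNLX15). Leaving out libraries in correlations was chosen after seeing the data. No paired analysis was possible because the labels give no number that the breeds share. Depth limits *miR-184*, with 3 or fewer reads in 3 libraries.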
